A study of Saccharomyces cerevisiae x Saccharomyces paradoxus and Saccharomyces cerevisiae and Saccharomyces paradoxus with 10 samples.

Results

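The genes described here encode cytosolic ribosomal proteins and the factors that bring ribosomes onto mRNA, move them along it and release them. They were taken by standard gene name, and 47 of the 4637 genes in the table were members: 21 ribosomal proteins (13 of the large subunit, 6 of the small subunit and 2 of the stalk) and 26 of the 29 factors the rule names. DED1, SUI1 and YEF3 were not analysed here. Ribosomal proteins form the 40S and 60S subunits together with ribosomal RNA, and in yeast many of them are encoded by a pair of near-identical gene copies named A and B. Initiation factors eIF2, eIF3, eIF4F and their partners load the small subunit onto capped mRNA and place it at the start codon, eEF1 delivers aminoacyl-tRNA, and the release factors end synthesis at the stop codon. In growing yeast these genes are known as some of the most heavily transcribed and translated of the genome, and those for ribosomal proteins are regulated together by Rap1, Ifh1, Fhl1 and Sfp1.

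Polyadenylated mRNA, and the footprints that ribosomes protect on it (RPF, ribosome-protected fragments), were sequenced from a diploid hybrid and from parents of both species. The hybrid joined S. cerevisiae BY4176, a strain of genotype MAT-alpha lys2 ura::KAN, to S. paradoxus CBS432 of genotype MATa ura::HYG. The parents were labelled S. cerevisiae BY4176 (haploid) and S. paradoxus CBS432 (diploid). All were grown in YPD at 30 °C and harvested in log phase, at an OD600 of 0.5 to 0.7. The 10 samples gave 2 replicates in each of 4 settings, mRNA and RPF of the hybrid and mRNA and RPF of the parents. Parental RPF libraries, made like those of the hybrid from monosome fractions, held a mixture of the parents, and replicate 2 ran in 2 lanes. Parental mRNA came from a mixed library and from separate libraries of each parent, and which replicate was the mixed one is unknown. The description of that library calls the strains haploid, whereas its ploidy label reads haploid and diploid. Species therefore cannot be told apart from ploidy in a parental difference. No member was marked by the authors as affected by ploidy or mating type. The share of all genes so marked is not given here, and an effect of ploidy in these libraries was not tested.

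Each value is the base-level coverage of a gene over its unmasked bases, that is, the positions at which reads can be assigned to 1 species. It is given in ppm of the total of its column, and for levels per kilobase of unmasked sequence. Column totals ran from 60.6 to 167 Mb, and the authors scaled each S. paradoxus column to the S. cerevisiae total, so that only shares of the total can be compared. Ratios are S. cerevisiae to S. paradoxus on the log2 scale, corrected for unequal unmasked lengths, with standard errors and Benjamini-Hochberg adjusted p-values from limma over 4544 genes, and a gene is called when the adjusted p is below 0.05. Standard errors rest on a spread pooled over the 4 settings and moderated across genes. They can be smaller or larger than the spread of a gene's own 2 replicates. All 47 members passed the filter on mean coverage. URA3, disrupted in both strains of the cross per the labels, stood at 3.99 to 12.5 ppm in the 8 hybrid columns and at 164 to 248 ppm in the 8 parental ones. Parental cultures thus differed from the crossed strains at URA3, although the strain names are the same.

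The ribosomal protein genes were read through short windows. Their unmasked sequence in S. cerevisiae ran from 103 to 283 bases (median 140), or a median of 27.1% of the coding sequence, against a median of 848.5 bases and 66.2% for the factors. Some factors were also read through short windows, with 108 bases for EFB1, the lowest, and 208 for CDC33. In 9 of the 21 ribosomal protein genes the unmasked lengths of the species lay more than 10% apart, which was so for 2.67% of all genes and for none of the factors. Among these were RPL6B, RPL8A, RPL9B, RPL24A, RPP1B, RPS0A and RPS25B. RPL9B had 103 unmasked bases in S. cerevisiae and 220 in S. paradoxus. A ratio of such a gene compares different positions of the gene in each species. Reads of a masked A or B copy cannot be assigned, and the only complete pair among the members was RPS25A and RPS25B.

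Ribosomal protein genes were covered far above the typical gene in every setting. In hybrid mRNA their mean level over both species ran from 1397 ppm per kb for RPL22B to 21116 for RPS12, with a median of 9036, against a median of 116 for all genes tested. In hybrid RPF the median was 15836 ppm per kb, against 70.4 for all genes, and in parental RPF 10939 against 74.2. All 21 lay above the all-gene median in each of the 4 settings. The factors were lower, with a median of 1058 ppm per kb in hybrid mRNA and 1141 in hybrid RPF. Among them EFB1, a subunit of the eEF1B exchange factor, was the highest at 11065 ppm per kb in hybrid mRNA and 17324 in hybrid RPF. These levels of EFB1 rest on 108 unmasked bases, 17.4% of its coding sequence. Within the other groups of factors the highest in hybrid RPF were GCD11 for eIF2 and eIF2B (1919 ppm per kb), HCR1 for eIF3 (2027), CDC33 for eIF4F and its partners (4102), TIF11, the eIF1A, for start-site selection (2561) and SUP35 for termination (1067). The lowest in mRNA was TIF4632, the less abundant of the 2 eIF4G scaffold genes, at 173 ppm per kb in the hybrid and 120 in the parents. GCD6, the catalytic subunit of eIF2B, was the lowest in RPF at 175 and 159.

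**Figure D1:**
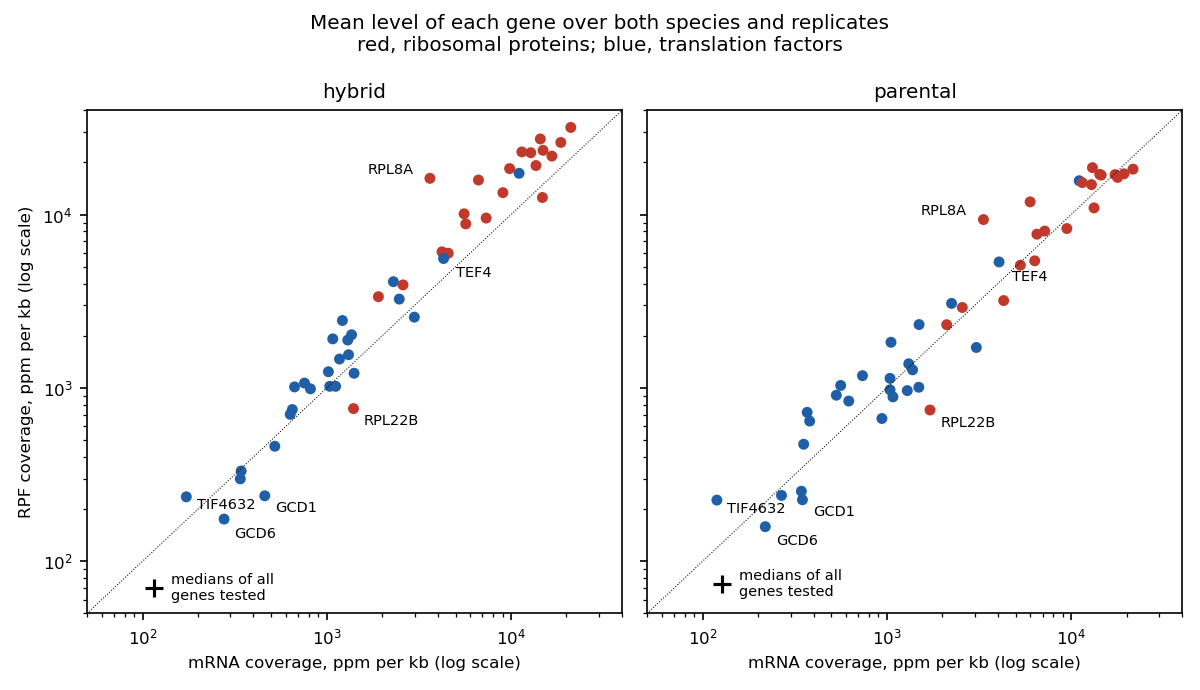
Mean coverage of each of the 47 genes in RPF (vertical axis) against mRNA (horizontal axis), both in ppm per kb on log scales, over both species and replicates, in the hybrid (left) and in the parents (right). The dotted line marks equal values and the cross the medians of all 4544 genes tested. In the hybrid most ribosomal proteins (red) lie above the line, whereas RPL22B lies below it in both panels.

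The RPF level relative to the mRNA level, in log2, was above the all-gene median for 20 or 21 of the 21 ribosomal proteins and for 24 or 25 of the 26 factors in every species and background. For the S. cerevisiae alleles of the hybrid it had a median of 0.63 in ribosomal proteins, 0.22 in factors and -0.67 in all genes. In the S. cerevisiae parent the medians were 0.07, 0.12 and -0.80. RPL8A, a 60S protein, was the highest of the ribosomal proteins in each species and background, from 1.23 in the S. paradoxus parent to 2.44 for the S. paradoxus allele of the hybrid. RPL22B, a large-subunit protein that binds its own pre-mRNA, was the lowest of them, from -1.56 to -0.70. In RPF the ribosomal proteins took 4.46 to 5.17% of coverage in the 4 hybrid columns and 2.88 to 4.28% in the 4 parental ones. These ranges did not overlap, but the 4 columns on each side come from only 2 replicates, with 1 column per species. How often other genes show such a gap is not given here. In mRNA the ribosomal proteins took 2.69 to 3.43% in the hybrid and 2.81 to 3.59% in the parents. No test was made between hybrid and parental libraries.

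Within the hybrid both alleles share a nucleus, so that an allele difference is called cis. In hybrid mRNA 14 of the 47 members were called, where 37.1% of all genes tested were. The S. cerevisiae allele was higher in 10 members (17.6% of all genes) and the S. paradoxus allele in 4 (19.5%). Of the 21 ribosomal proteins 9 were called, 7 of them higher for S. cerevisiae, and of the 26 factors 5 were called, 3 of them higher for S. cerevisiae. The median ratio was 0.14 in ribosomal proteins, -0.04 in factors and -0.02 in all genes.

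The ribosomal protein genes with the largest ratios were RPL24A, RPS25B and RPS25A. RPL24A, which encodes a 60S protein at a bridge between the subunits, stood at 8213 and 6373 ppm per kb for the S. cerevisiae allele in hybrid mRNA replicates 1 and 2, and at 4912 and 2757 for the S. paradoxus allele. Both S. cerevisiae values lay above both S. paradoxus values, with ratios of 0.74 and 1.21 in the 2 replicates. The mean ratio was 0.97 ± 0.12 (limma SE, 1.96-fold, limma adjusted p = 3.1e-06). RPL24A was the only member that also passed a test against a difference of 1.5-fold in this comparison. RPS25A and RPS25B both encode eS25, on the head of the small subunit. RPS25A stood at 14518 and 14266 ppm per kb for S. cerevisiae and at 8009 and 9028 for S. paradoxus, a ratio of 0.76 ± 0.11 (1.69-fold, limma adjusted p = 2.5e-05). RPS25B stood at 5439 and 5393 against 3230 and 2824, a ratio of 0.84 ± 0.09 (1.79-fold, limma adjusted p = 1.5e-06). In both copies the alleles did not overlap. RPL8A followed with 0.45 and 0.71 in the replicates and RPP1B, an acidic protein of the stalk that recruits elongation factors, with 0.42 and 0.27. RPL22B (-0.38 and -0.45) and RPL9B (-0.23 and -0.59) were higher for S. paradoxus. Without the correction for unequal unmasked lengths RPL9B moved from -0.41 to -1.50, RPP1B from 0.34 to 0.70 and RPL8A from 0.58 to 0.37, and all 3 were still called.

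Among the factors, GCD2 and GCD7 were higher for the S. cerevisiae allele. They encode the delta and beta subunits of eIF2B, the factor that recharges eIF2 with GTP, and had ratios of 0.65 ± 0.09 and 0.52 ± 0.10 (limma adjusted p = 2.5e-05 and 0.00059). The other 5 members of the eIF2 and eIF2B group were not called, with ratios from -0.10 to 0.14. PRT1, the eIF3b subunit on which eIF3 is built, was 1.3-fold higher for S. cerevisiae. TIF4632 was the factor with the largest difference towards S. paradoxus, at 130 and 135 ppm per kb against 188 and 238 (-0.67 ± 0.10, 1.6-fold, limma adjusted p = 2.4e-05). HCR1, the loosely bound eIF3j, followed with -0.38 and -0.41 in the replicates. Without hybrid mRNA replicate 2 only 8 members were called, and RPL22B (-0.38), RPL9B (-0.23), HCR1 (-0.38) and RPP1B (0.42) were not. Without replicate 1 the calls of GCD7 (0.33) and RPP1B (0.27) were lost. Such losses are listed only for the called members with the largest ratios, up to 8 in each direction. RPL32 and RPL34A, also called in hybrid mRNA, were not followed in these fits.

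**Figure D2:**
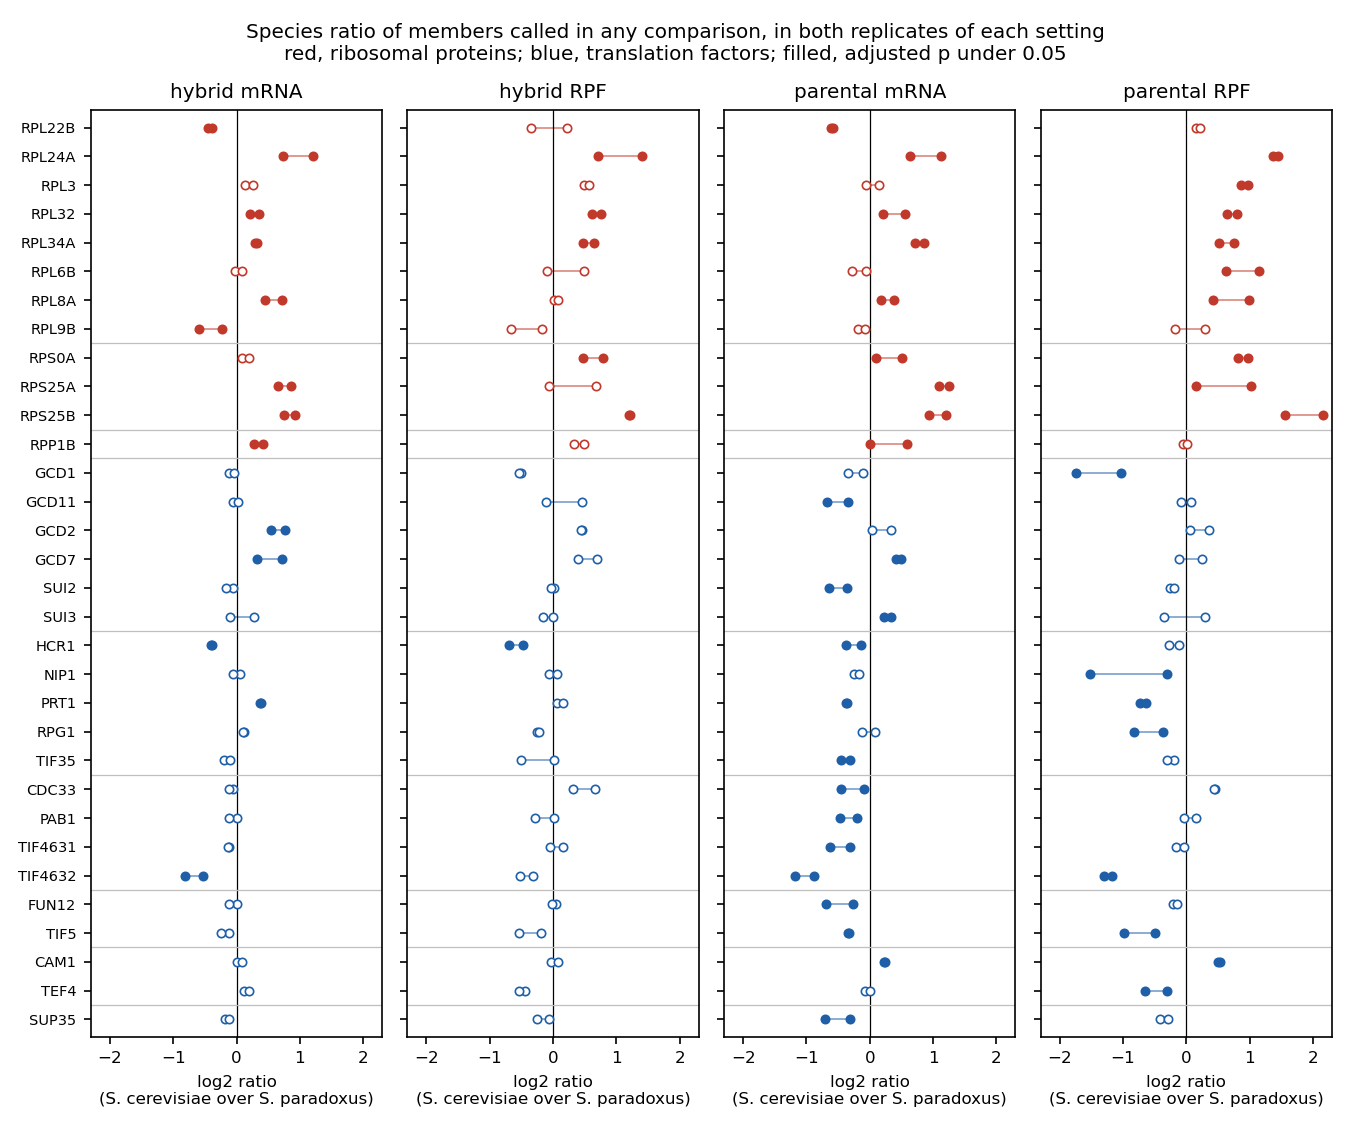
Log2 ratio of the S. cerevisiae to the S. paradoxus value (horizontal axis) for the 32 members called in at least 1 comparison (rows, grouped by subunit or factor complex) in the 4 settings (panels). Each point is 1 replicate, the line joins both, and filled points mark genes with an adjusted p under 0.05. RPL24A and RPS25B lie to the right of 0 in all 8 libraries, and TIF4632 lies to the left of 0 in all 8.

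Ribosomal protein promoters carry sites for Rap1, which can be looked for with the letters ACCCNNNCA on both strands of the 500 bases before the start codon. The match was present in 8 of the 21 ribosomal protein genes (38.1%), in 2 of the 26 factor genes (7.69%) and in 788 of 6000 protein-coding genes of the reference (13.1%). Of the 9 ribosomal proteins called in hybrid mRNA 4 held it, and of the 12 not called 4 held it. The windows of those 4 called genes are shown because their alleles differed in the hybrid. They are 30 bases of S. cerevisiae reference sequence (RefSeq, R64) along the strand of the gene, with the match in capitals, which reads as its reverse complement where it lies on the opposite strand. RPL34A, RPL8A and RPL22B lie on the minus strand of the chromosome and RPP1B on the plus strand.
RPL34A, chrV:270478-270507: tttagtggtaTGTATGGGTgataaattttt
RPL8A, chrVIII:36245-36274: tgaagaaaacACCCAAACAtatctaggcca
RPP1B, chrIV:229622-229651: attcctttaaACCCATACAtatcttacaca
RPL22B, chrVI:65398-65427: cgttcgagaaACCCTTCCActatgctttcc
RPL22B, chrVI:65158-65187: ccatgtcaacACCCGTACAtattcagagat
The match began 312 bases before the start codon in RPL34A, 239 in RPL8A and 274 in RPP1B, and 485 and 245 bases before it in RPL22B. The S. paradoxus sequence was not used here, so the matches are not compared between alleles.

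In hybrid RPF 6 members were called, where 12.4% of all genes were, and 5 of these, all ribosomal proteins, had the higher S. cerevisiae allele (5.79% of all genes). The S. paradoxus allele was higher in 1 (6.62%). A fit to the hybrid RPF libraries alone called 18 members and 675 of 4544 genes. RPS25B stood at 8412 and 8588 ppm per kb for S. cerevisiae and at 3696 and 3701 for S. paradoxus, a ratio of 1.20 ± 0.20 (2.3-fold, limma adjusted p = 0.00059). RPL24A had replicate ratios of 0.71 and 1.41 and a mean of 1.06 ± 0.25 (limma adjusted p = 0.0083). RPL32 (0.62 and 0.75) and RPL34A (0.47 and 0.64), both of the large subunit, and RPS0A (0.47 and 0.78), a 40S protein needed for maturation of the small subunit, completed the list. HCR1 was the factor called, with -0.48 and -0.70. RPS25A, the other copy of eS25, was at 0.68 in replicate 1 and -0.07 in replicate 2 and was not called (limma adjusted p = 0.43). Without hybrid RPF replicate 1 the calls of RPL32 (0.75), RPL34A (0.64), RPS0A (0.78) and HCR1 (-0.70) were lost, and without replicate 2 RPS25B alone was called. RPL24A then had 0.71, RPL32 0.62, RPL34A 0.47, RPS0A 0.47 and HCR1 -0.48.

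The RPF ratio minus the mRNA ratio gives a difference in translational efficiency (TE), here tested inside 1 fit. No member was called for TE in the hybrid in limma, where 1.41% of all genes were, and 5 members (10.6%) had an unadjusted p under 0.05, against 15.8% of all genes. These were TEF4 (-0.65 ± 0.21, 95% interval -1.09 to -0.21), CDC33 (0.57 ± 0.21), RPL8A (-0.54 ± 0.22), RPS0A (0.49 ± 0.22) and RPS1B (-0.44 ± 0.20). The fit to the hybrid settings alone called 1 member and 87 of 4544 genes. The authors' deposited table called 6 members towards S. cerevisiae and 7 towards S. paradoxus for translation in cis, 27.7% of the members against 27.5% of all genes.

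Between the parents 24 of the 47 members were called in mRNA, where 58.1% of all genes were. Higher for S. cerevisiae were 11 (30.7% of all genes) and higher for S. paradoxus 13 (27.4%). The directions differed by class. Ribosomal proteins had 8 calls towards S. cerevisiae and 1 towards S. paradoxus, and factors 3 and 12, with median ratios of 0.06 and -0.22 against 0.04 in all genes. Under median-of-ratios scaling, 7 members were called towards S. cerevisiae and 17 towards S. paradoxus, with 6 and 2 among ribosomal proteins and 1 and 15 among factors.

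RPS25A and RPS25B had the largest ratios. RPS25A stood at 17903 and 21760 ppm per kb in the S. cerevisiae parent and at 8412 and 9157 in the S. paradoxus parent, a ratio of 1.17 ± 0.12 (2.25-fold, limma adjusted p = 1.3e-07). RPS25B stood at 6191 and 8217 against 3228 and 3579, a ratio of 1.07 ± 0.10 (2.1-fold, limma adjusted p = 6.3e-08). The species did not overlap in either copy. RPL24A (0.63 and 1.13) and RPL34A (0.85 and 0.71) came next, and RPL32, RPS0A and RPP1B had ratios of 0.38, 0.31 and 0.30. RPL22B stood at 1370 and 1366 ppm per kb in S. cerevisiae and at 2042 and 2081 in S. paradoxus, a ratio of -0.59 ± 0.10 (1.51-fold, limma adjusted p = 5.8e-05), and was the only ribosomal protein called in that direction.

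Of the 15 factors called in parental mRNA 13 take part in initiation, as do 21 of the 26 factors. TIF4632 stood at 88.4 and 69.5 ppm per kb in S. cerevisiae and at 163 and 157 in S. paradoxus, a ratio of -1.03 ± 0.11 (2.04-fold, limma adjusted p = 1.4e-07). Of the 5 genes of eIF4F and its partners, 4 were called, where 58.1% of all genes were, all higher for S. paradoxus (27.4% of all genes). The others were TIF4631, the main eIF4G gene (-0.31 and -0.62), the poly(A)-binding protein gene PAB1 and the cap-binding eIF4E gene CDC33. Of eIF2, GCD11 (gamma subunit, -0.34 and -0.68) and SUI2 (alpha subunit, -0.36 and -0.64) were higher for S. paradoxus, and SUI3 and the eIF2B gene GCD7 (0.46 ± 0.11) for S. cerevisiae. FUN12, the eIF5B that joins the subunits (-0.27 and -0.69), SUP35, the release factor eRF3 (-0.31 and -0.70), and TIF35, the eIF3g subunit (-0.31 and -0.46), were also higher for S. paradoxus. The eIF3 group had 3 calls of 6 (50%), below the 58.1% of all genes, and none towards S. cerevisiae. Without parental mRNA replicate 2 only 15 members were called, and RPL32 (0.21), RPP1B (0.00), FUN12 (-0.27) and TIF35 (-0.31) were not. Without replicate 1 the call of RPS0A (0.10) was lost. Called members with smaller ratios were not followed in these fits, among them CDC33, with replicate ratios of -0.09 and -0.45. The fit to the parental mRNA libraries alone called 16 members and 2642 of all genes, and without the correction for unmasked lengths RPS0A stood at 0.58 and RPP1B at 0.66.

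The parental difference minus the hybrid difference gives the part that acts in trans. In mRNA 6 members were called, where 35.3% of all genes were, 1 towards S. cerevisiae (18.9% of all genes) and 5 towards S. paradoxus (16.5%). All 5 were initiation factors, as are 21 of the 26 factors, and 19.2% of the factors were called. Parental and hybrid ratios of PRT1 had opposite signs. Its S. cerevisiae allele stood at 927 and 915 ppm per kb in hybrid mRNA and the S. paradoxus allele at 711 and 709. In the parents S. cerevisiae stood at 553 and 531 and S. paradoxus at 710 and 690. The ratio thus went from 0.38 ± 0.08 in the hybrid to -0.37 ± 0.09 between the parents, a difference of -0.75 ± 0.12 (1.68-fold, limma adjusted p = 8.5e-05). GCD11, GCD2, FUN12 and SUI2 had trans values of -0.49, -0.46, -0.43 and -0.40 (limma adjusted p from 0.0093 to 0.022). GCD2 had 0.54 and 0.76 in the hybrid and 0.34 and 0.04 between the parents. GCD11, FUN12 and SUI2 had hybrid ratios between -0.16 and 0.03 and parental ratios between -0.69 and -0.27.

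RPL34A, a 60S protein, was the ribosomal protein called in trans, with 0.33 and 0.29 in the hybrid and 0.85 and 0.71 between the parents (0.47 ± 0.12, limma adjusted p = 0.0063). In ribosomal proteins the median trans value was -0.01, and in factors -0.19, against 0.05 in all genes. Without hybrid mRNA replicate 1 the calls of FUN12 (-0.37) and SUI2 (-0.35) were lost. Without hybrid replicate 2 and without parental replicate 2 those of GCD11 (-0.45 and -0.33), GCD2 (-0.35 and -0.31), FUN12 (-0.49 and -0.22) and SUI2 (-0.45 and -0.26) were lost, and PRT1 and RPL34A were called in all 4.

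**Figure D3:**
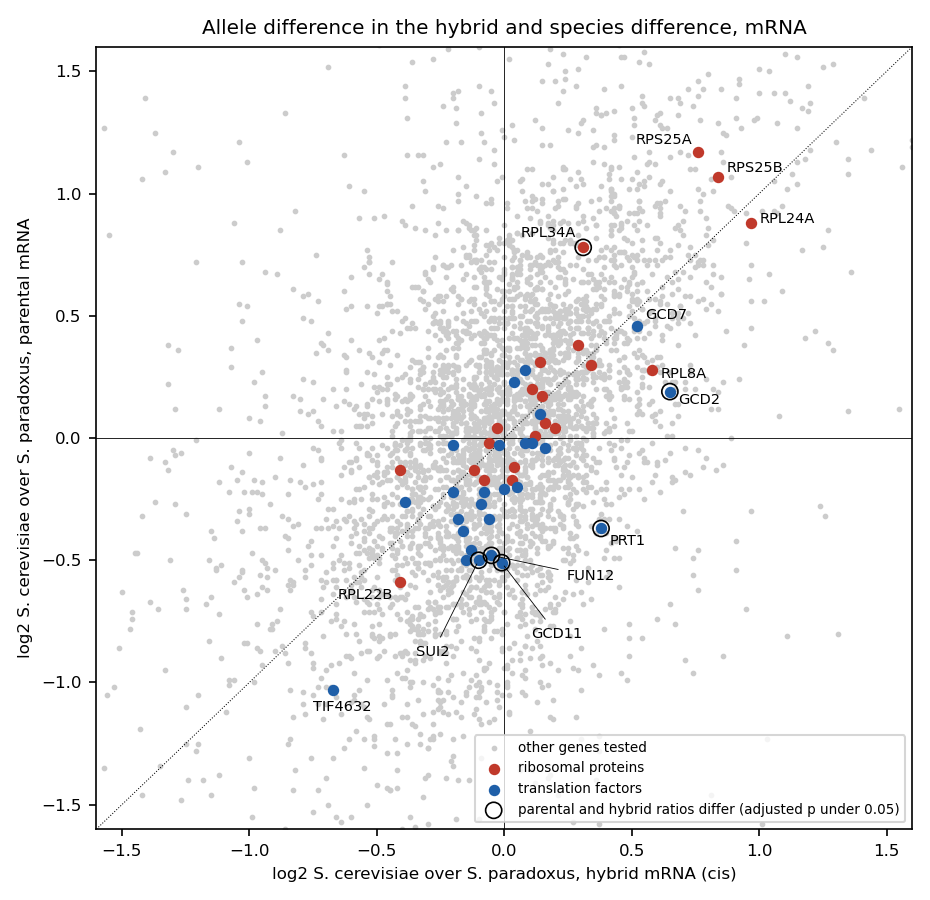
Log2 mRNA ratio, S. cerevisiae to S. paradoxus, between the parents (vertical axis) against that between the alleles of the hybrid (horizontal axis), with ribosomal proteins in red, factors in blue and all other genes tested in grey. Rings mark the 6 members whose parental and hybrid ratios differed, and the dotted line marks equal ratios. PRT1 lies at 0.38 in the hybrid and -0.37 between the parents, and points beyond 1.6 on either axis are not drawn.

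In parental RPF 17 members were called, where 35.9% of all genes were, 10 towards S. cerevisiae (15.6% of all genes) and 7 towards S. paradoxus (20.3%). The classes again differed in direction. All 9 called ribosomal proteins were higher for S. cerevisiae, and of 8 called factors 7 were higher for S. paradoxus. The median ratio was 0.44 in ribosomal proteins and -0.09 in factors, against -0.07 in all genes. A positive ratio was found for 17 of the 21 ribosomal proteins.

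RPS25B stood at 6259 and 9823 ppm per kb in the S. cerevisiae parent and at 2131 and 2211 in the S. paradoxus parent, with a ratio of 1.85 ± 0.18 (3.61-fold, limma adjusted p = 2.1e-07). RPL24A followed with replicate ratios of 1.44 and 1.37 and a mean of 1.41 ± 0.22 (2.65-fold). RPL3, which encodes a protein close to the peptidyl transferase centre, stood at 23278 and 25626 ppm per kb in S. cerevisiae and at 12693 and 13066 in S. paradoxus, without overlap (0.92 ± 0.16, 1.9-fold, limma adjusted p = 0.00025). RPS0A (0.81 and 0.98), RPL6B (0.63 and 1.15), RPL32 (0.64 and 0.80), RPL8A (0.42 and 0.99), RPL34A (0.75 and 0.52) and RPS25A (0.15 and 1.02) were the others. The share of RPS25A in the summed level of the eS25 pair ran from 71.9 to 76.5% in the 8 S. cerevisiae columns. In S. paradoxus it ran from 71.3 to 76.2% in the 4 mRNA columns and from 82.3 to 87.3% in the 4 RPF columns. The copies are near-identical and only 136 to 169 bases of each were unmasked, and the difference between the copies was not tested.

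GCD1, the gamma subunit of eIF2B, had the largest ratio towards S. paradoxus. It stood at 147 and 105 ppm per kb in the S. cerevisiae parent and at 302 and 351 in the S. paradoxus parent (-1.39 ± 0.19, 2.62-fold, limma adjusted p = 1.3e-05). TIF4632 stood at 130 and 138 against 320 and 313 (-1.24 ± 0.18, 2.37-fold, limma adjusted p = 3.6e-05). RPS25B, RPL24A, GCD1 and TIF4632 also passed a test against 1.5-fold. Within eIF3 3 of the 6 members were called, where 35.9% of all genes were. These were NIP1 (eIF3c, -0.31 and -1.52), PRT1 (-0.64 and -0.73) and RPG1 (eIF3a, -0.37 and -0.83). TIF34, TIF35 and HCR1 were not called, at -0.08, -0.26 and -0.20, and no test compared these subunits with each other. TIF5, the eIF5 that triggers GTP hydrolysis on eIF2, had -0.98 and -0.49. The eEF1B gamma subunit has 2 genes, which were called in opposite directions, CAM1 at 0.53 and 0.50 and TEF4 at -0.31 and -0.66. Without parental RPF replicate 2 only 9 members were called, 5 ribosomal proteins and 4 factors, and RPL6B (0.63), RPL32 (0.64), RPL8A (0.42), NIP1 (-0.31), RPG1 (-0.37) and TEF4 (-0.31) were not. Without replicate 1 the calls of RPL34A (0.52) and TIF5 (-0.49) were lost.

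**Figure D4:**
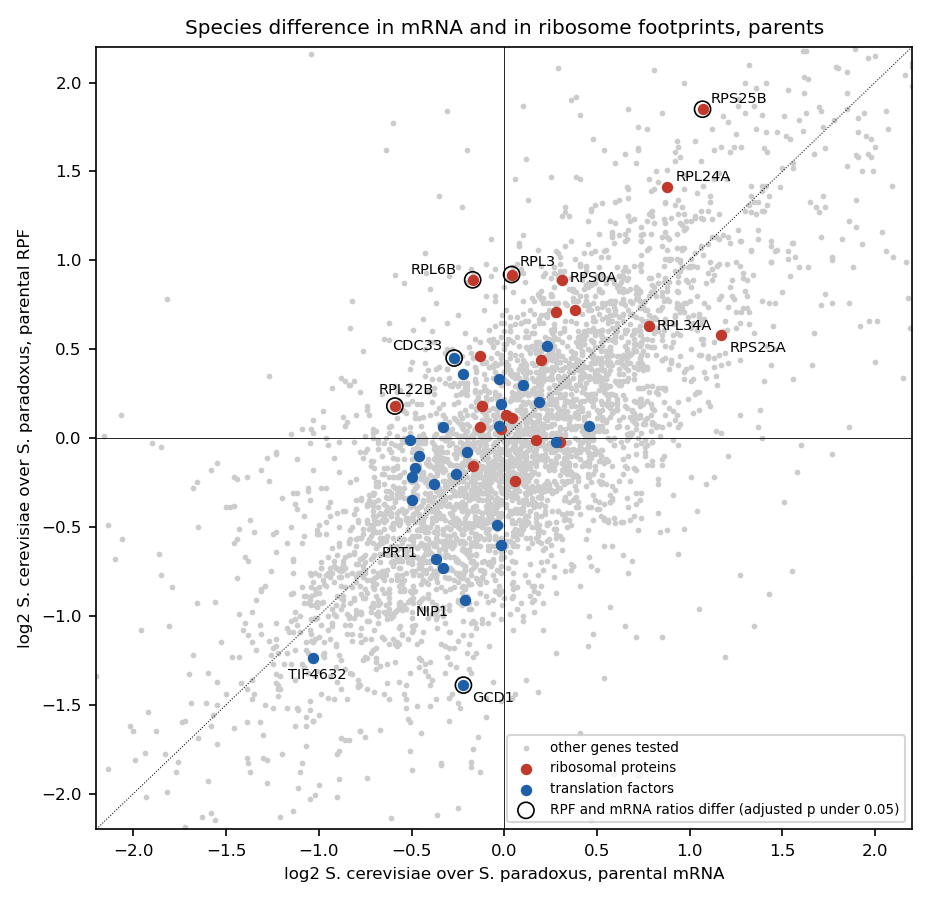
Log2 ratio, S. cerevisiae to S. paradoxus parent, in RPF (vertical axis) against mRNA (horizontal axis), with ribosomal proteins in red, factors in blue and all other genes tested in grey. Rings mark the 6 members with a called difference in translational efficiency, and the dotted line marks equal ratios. RPL3 and RPL6B lie well above the line near an mRNA ratio of 0, and GCD1 lies well below it, with points beyond 2.2 on either axis not drawn.

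For TE between the parents 6 members were called, where 6.32% of all genes were. Higher for S. cerevisiae were 5 (2.44% of all genes) and higher for S. paradoxus 1 (3.87%). The median TE ratio was 0.24 in ribosomal proteins, 0.12 in factors and -0.09 in all genes, and median-of-ratios scaling moved these to 0.37, 0.25 and 0.03. RPL6B had an mRNA ratio of -0.17 ± 0.10 and an RPF ratio of 0.89 ± 0.18, and a TE ratio of 1.06 ± 0.21 (2.09-fold, limma adjusted p = 0.0042). RPL3 had 13508 and 12953 ppm per kb of mRNA in S. cerevisiae and 12239 and 13536 in S. paradoxus, which overlapped, in contrast to its RPF. Its TE ratio was 0.88 ± 0.19 (1.85-fold, limma adjusted p = 0.0086). RPL3 was read over 144 unmasked bases in each species, 12.4% of its coding sequence. RPL6B was read over 128 in S. cerevisiae and 107 in S. paradoxus. The TE ratios of both genes were measured over these stretches only. RPS25B had a TE ratio of 0.78 ± 0.21 on top of its mRNA ratio, and RPS25A had -0.58 ± 0.24, which was not called (limma adjusted p = 0.16). RPL22B was higher for S. paradoxus in mRNA and was not called in RPF, at 813 and 770 ppm per kb in S. cerevisiae and 733 and 667 in S. paradoxus. Its TE ratio was 0.77 ± 0.20 (1.7-fold, limma adjusted p = 0.028).

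The factors called for TE were GCD1 and CDC33. GCD1 stood at 346 and 298 ppm per kb of mRNA in S. cerevisiae and at 372 and 376 in S. paradoxus (-0.22 ± 0.11, not called), and its TE ratio was -1.17 ± 0.22 (2.25-fold, limma adjusted p = 0.0025). CDC33 was lower in S. cerevisiae mRNA (-0.09 and -0.45) and had RPF ratios of 0.45 and 0.44, with a TE ratio of 0.72 ± 0.20 (1.65-fold, limma adjusted p = 0.038). It was read over 208 unmasked bases in each species, 32.4% of its coding sequence. In the hybrid the TE ratio of GCD1 was -0.44 ± 0.23 and that of CDC33 0.57 ± 0.21, neither called. None of the 6 TE calls was kept without parental RPF replicate 2, where RPL6B had 0.80, RPL3 0.84, RPS25B 0.48, RPL22B 0.74, CDC33 0.73 and GCD1 -0.81. Without parental RPF replicate 1 RPL3 (0.93), RPL22B (0.80) and CDC33 (0.72) were not called, without parental mRNA replicate 1 RPS25B (0.65), and without parental mRNA replicate 2 RPL22B (0.75) and CDC33 (0.54).

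**Figure D5:**
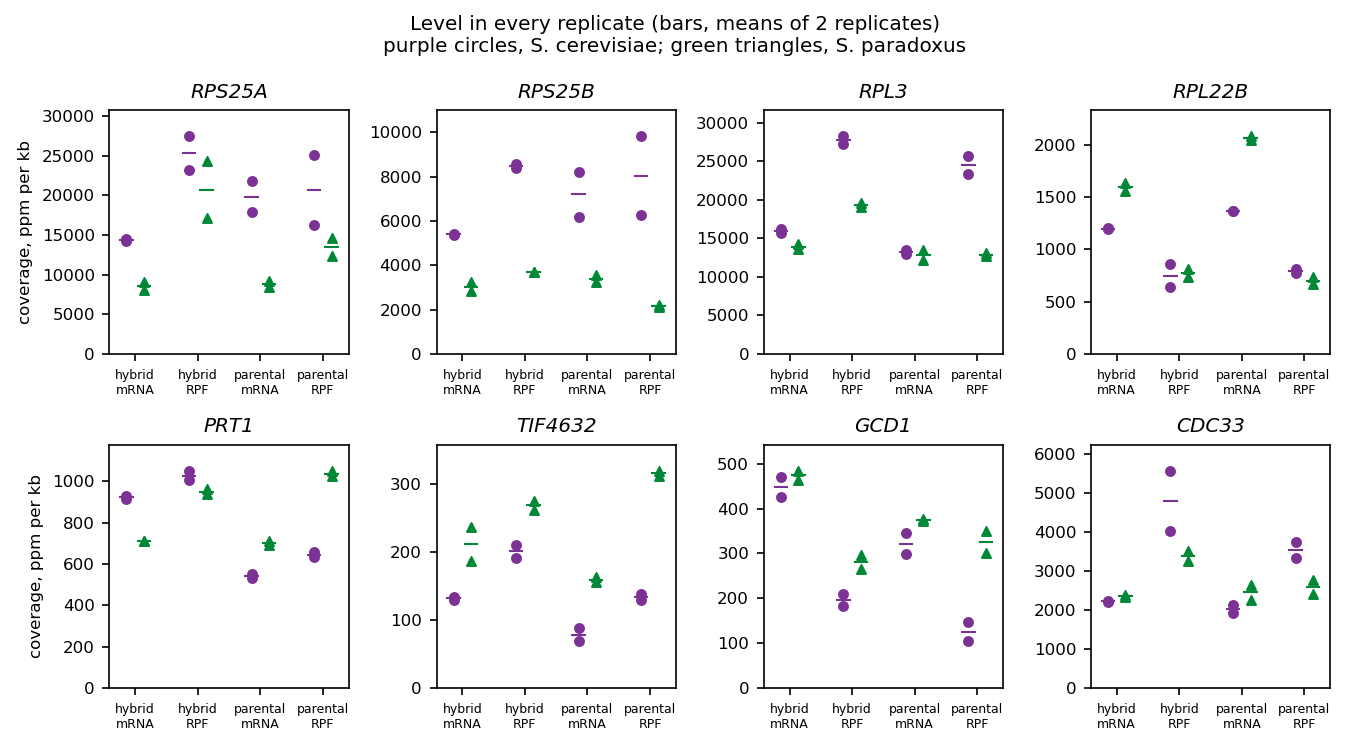
Coverage in ppm per kb (vertical axis, from 0) of 8 members in the 4 settings (horizontal axis), with S. cerevisiae as purple circles and S. paradoxus as green triangles. Each point is 1 replicate and each bar the mean of 2. RPS25B separates the species in all 4 settings, RPL3 in all but parental mRNA, and PRT1 in opposite directions in hybrid and parental mRNA.

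The bases around the start codon are shown for these 6 genes because their RPF and mRNA ratios differed. Each line gives 12 bases before the start codon, the start codon in capitals and 3 bases after it, from the S. cerevisiae reference (RefSeq, R64), along the strand of the gene. GCD1, RPL3 and RPL6B lie on the plus strand, and CDC33, RPL22B and RPS25B on the minus strand.
RPL6B, chrXII:1028842-1028859: atattcaacgaaATGact
RPL3, chrXV:444674-444691: caacaatcaatcATGtct
RPS25B, chrXII:795894-795911: acataatataacATGcct
RPL22B, chrVI:64927-64944: atatcaaccacaATGgct
CDC33, chrXV:61019-61036: aaaggaagaaaaATGtcc
GCD1, chrXV:813972-813989: attgtcgtagtcATGtca
An A at the third base before the start codon, the base that yeast mRNAs favour there, was present in 76.2% of the ribosomal protein genes, 76.9% of the factor genes and 60.9% of 6000 protein-coding genes. RPL6B and GCD1, with TE ratios of 1.06 and -1.17, both had G there. Of the 12 bases before the start codon 9 were A in CDC33, 7 in RPS25B and 2 in GCD1. RPL6B, RPL3 and RPL22B had 6 each. As the S. paradoxus sequence was not used here, these bases are not compared between the species. Their relation to the TE ratios was not tested.

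In RPF 1 member was called in trans, where 11.5% of all genes were. PRT1 had 1004 and 1050 ppm per kb for the S. cerevisiae allele and 961 and 937 for the S. paradoxus allele in the hybrid, and 658 and 632 against 1023 and 1047 in the parents. The trans value was -0.80 ± 0.23 (1.74-fold, limma adjusted p = 0.029), close to that of its mRNA, and the TE ratio between the parents was -0.31 ± 0.18 and was not called. The call of PRT1 was lost without either replicate of hybrid RPF (-0.85 and -0.75) or of parental RPF (-0.84 and -0.75).

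At least 1 of the 8 comparisons called 32 members (68.1%), against 76.3% of all genes, and 15 members were called in none. They were 9 ribosomal proteins, among them RPL5, RPL10, RPL28, RPP0, RPS3 and RPS12, and 6 factors, EFB1, GCD6, SUP45, TIF3, TIF11 and TIF34. The mRNA ratios of the 6 factors ran from -0.20 (EFB1) to 0.14 (GCD6) in the hybrid and from -0.22 (EFB1) to 0.10 (GCD6) between the parents. In RPF they ran from -0.41 (TIF3) to 0.21 (TIF11) and from -0.08 (TIF34) to 0.36 (EFB1). Of these ribosomal proteins RPL28 had the largest ratios in hybrid RPF (0.68 and 0.22) and RPP0 in parental RPF (0.16 and 0.77). RPS3 lines the mRNA entry channel, RPP0 is the base of the stalk, RPL5 carries the 5S rRNA and SUP45 is the release factor that reads the stop codon.

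Coding sequences of the members were less diverged than those of most genes. In the authors' deposited table the median divergence between the species was 3.84% in ribosomal proteins, 7.5% in factors and 10.1% in all genes. In promoters the factors again lay below all genes and the ribosomal proteins lay above them in the authors' deposited table, with a median of 25.2% in 20 ribosomal protein genes, 15.3% in 24 factor genes and 20.5% in 3604 genes. RPL22B (60.4%), RPL34A (58.6%) and RPL31B (57.7%) had the highest promoter values among the members in the authors' deposited table. RPL34A and RPL22B were called in hybrid mRNA in opposite directions, and RPL31B was not called in any comparison. NIP1, not called in either mRNA comparison, had the lowest at 6.03% in the authors' deposited table. The nonsynonymous rate KA, in the authors' deposited table, had a median of 0.00624 in 16 ribosomal proteins, 0.0156 in 23 factors and 0.0327 in 4580 genes. Members without a KA were those whose ratio of nonsynonymous to synonymous rate was 0 there, so the medians of the members leave these conserved genes out. Among members with a value TIF4632 had the highest KA, 0.0387, in the authors' deposited table.

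The authors' deposited table, from a permutation test per gene, called 46.8% of the members for mRNA in cis, against 59% of all genes, and 13 of the 14 members called here were called there in the same direction. The member left was RPP1B. For mRNA in trans the authors' deposited table called 4 members towards S. cerevisiae and 16 towards S. paradoxus, 42.6% of the members against 62.1% of all genes (1571 and 1308), and all 6 called here were among them in the same direction. For translation in trans the authors' deposited table called 13 members towards S. cerevisiae and 6 towards S. paradoxus, 40.4% of the members against 27.8% of all genes (645 and 642).

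Of 10 listed regulators of ribosomal protein or ribosome biogenesis genes 7 were called in parental mRNA, where 58.1% of all genes were. Towards S. cerevisiae were 4 of them (30.7% of all genes). DOT6, a repressor of ribosome biogenesis genes, was 1.96 ± 0.13 and RAP1, which binds ribosomal protein promoters, 0.50 ± 0.10, and HMO1, which binds many of the same promoters, and STB3 were at 0.45 and 0.42. TOD6, the paralog of DOT6, was -1.03 ± 0.11, the kinase gene SCH9 -0.67 and the coactivator gene IFH1 -0.37. In parental RPF 6 were called, where 35.9% of all genes were, among them RAP1 at 0.91, HMO1 at 0.87 and SFP1, an activator of ribosomal protein genes, at -1.14 ± 0.19. The trans mRNA values of TOD6 (-1.33 ± 0.15) and DOT6 (1.23 ± 0.17) had opposite signs. No relation between these genes and the members was tested.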

How the data were processed

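Members, gene lists and the fit were chosen with earlier results of these data known. Values are signal, namely the total base-level coverage per gene, species and replicate that the authors deposited, with S. paradoxus columns scaled by the authors to the S. cerevisiae total, per the file's description. CASAVA 1.8.2 and Bowtie 0.12 are named in the submitters' processing notes, and the genome builds are not given in the sources used here. Coverage is not a count of reads, so depth behind a value is unknown. Of the per-sample columns, 24 more were left out.

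Each column was expressed in ppm of its total, 0.5 ppm was added, and the log2 ratio of the species was formed per replicate, minus the log2 ratio of their unmasked bases. The pseudocount understates ratios of weakly covered genes. Of 4637 genes, 4544 with a mean of at least 3 ppm were tested. The fit was made in limma 3.58.1 (R 4.3.3) with 1 mean and 1 weight for each setting (2.1 for hybrid mRNA, 0.469 for hybrid RPF, 1.75 for parental mRNA and 0.582 for parental RPF), since over all genes RPF ratios differed more between replicates (median 0.346 and 0.331, against 0.169 and 0.186 in mRNA), and a spread that followed mean coverage. Among the members alone parental mRNA differed most (0.235, against 0.214 in parental RPF, 0.186 in hybrid RPF and 0.113 in hybrid mRNA). The weights, set over all genes, do not follow this order, and the counts of members called in each setting depend on them. There were 4 residual and 14.8 prior degrees of freedom. P-values were two-sided and adjusted by the Benjamini-Hochberg method. The labels say that samples came from single colonies but not which replicates were separate cultures. Standard errors and p-values therefore measure only the spread between these libraries, pooled over settings and moderated across genes. Where the labels give no replicate number for parental mRNA, the number is that of the deposited column. Comparisons that share settings share their libraries, so cis, parental and trans values of a gene are not independent.

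In each comparison the called members with the largest ratios were named, up to 8 in each direction, with both copies of a pair, and values of uncalled members are given where they are compared with these. Also named were the member best covered in RPF of each group and some members with unequal unmasked lengths. Other called members, and the genes of the divergence paragraph, were named after their values were seen. The script was tested on simulated data. Alternatives were another spread, offset, pseudocount, filter, scaling, set of samples or threshold, genes with at least 300 unmasked bases and lengths within 10%, each replicate left out, and a replicate block. Coordinates are those of R64 and were matched by systematic name. The values of 1 member are not reported here, although it is included in the counts.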

Additional observations from a re-analysis of the deposited data

Results flagged for a closer look

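For 7 results the effect in the hybrid and the effect between the parents differed by the test of that difference itself, the trans comparison in limma. In mRNA these were PRT1 (-0.75, adjusted p = 8.5e-05), GCD11 (-0.49), GCD2 (-0.46), FUN12 (-0.43), SUI2 (-0.40) and RPL34A (0.47). In RPF it was PRT1 (-0.80, adjusted p = 0.029). The hybrid and parental libraries also differed in ploidy, in URA3 and in how the parents were mixed, and the part of these in the 7 results was not tested. Groups of 2 replicates were too small for a search for single samples far from the others.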

How the results depend on the processing

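Counts are of the 47 members called. No value of a called member named by the rule changed direction under any alternative run. With 1 spread shared by all settings 9 were called in cis mRNA, 15 in cis RPF, 15 in parental mRNA, 1 in trans mRNA and 8 in trans RPF. Fitting only the settings compared gave 18 in cis RPF, where 675 of the 4544 genes were called. It gave 1 in cis TE (87 genes), 16 in parental mRNA (2642), 3 in parental TE (337) and 2 in trans RPF (490). For the other alternatives counts of all genes are not given here. Tested against 1.5-fold, 1 was called in cis mRNA, 3 in parental mRNA, 4 in parental RPF, and 0 in cis RPF, parental TE, trans mRNA and trans RPF. Genes with at least 300 unmasked bases and lengths within 10% held 23 members and no ribosomal protein, with 5 called in cis mRNA, 1 in cis RPF, 13 in parental mRNA, 8 in parental RPF, 1 in parental TE and 2 in trans RPF. Without the length correction 18, 9, 26 and 20 were called in cis mRNA, cis RPF, parental mRNA and parental RPF. A pseudocount of 1 ppm gave 2 in trans RPF. Median-of-ratios scaling moved the median of all genes in parental TE from -0.09 to 0.03 and gave 8 called factors in trans mRNA. Leaving out 1 replicate gave 8 to 11 in cis mRNA, 1 to 2 in cis RPF, 15 to 22 in parental mRNA, 9 to 16 in parental RPF, 0 to 8 in parental TE, 3 to 9 in trans mRNA and 0 to 2 in trans RPF. In those fits the setting with 1 sample was assumed to vary like the others. The cause of these changes was not tested, except that fewer samples or genes enter some fits. Equal replicate numbers are not stated to pair mRNA with RPF, and the main fit did not pair them. Deviations of same-numbered mRNA and RPF libraries from the group means correlated across genes with r = 0.0189 in the hybrid and 0.178 between the parents. Whether these libraries were paired was not tested. A replicate block gave 11 in trans mRNA and 4 in trans RPF, and 16, 7, 0, 25, 19 and 7 in cis mRNA, cis RPF, cis TE, parental mRNA, parental RPF and parental TE.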

Other observations

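The cytosolic aminoacyl-tRNA synthetases, which charge tRNA for the ribosome, had 16 genes in the table of 18 listed. In hybrid mRNA 7 were called, where 37.1% of all genes were, 5 higher for S. cerevisiae, with GUS1 for glutamyl-tRNA synthetase at 0.47 ± 0.09 and VAS1 for valyl-tRNA synthetase at 0.46 ± 0.09, and FRS2 at -0.31. In parental mRNA 8 were called, where 58.1% of all genes were, 4 in each direction, with VAS1 at 0.76 ± 0.10 and HTS1 for histidyl-tRNA synthetase at 0.54 ± 0.10, and FRS2 at -0.40. In parental RPF 2 were called, where 35.9% of all genes were, HTS1 at 0.75 ± 0.17 and TYS1 at -0.58 ± 0.17, and VAS1 had a parental TE ratio of -0.80 ± 0.20.

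Of 28 further translation genes listed, 17 were in the table. In parental mRNA 7 of the 17 (41.2%) were called, where 58.1% of all genes were, 2 towards S. cerevisiae (30.7%) and 5 towards S. paradoxus (27.4%). The ABC-type ATPase gene NEW1 was at -0.65 ± 0.10, the eIF2 kinase gene GCN2 at -0.61 ± 0.14 and ASC1, a protein on the head of the small subunit, at -0.35 ± 0.11. EGD2, a subunit of the nascent polypeptide-associated complex, was at 0.44 ± 0.09 in parental mRNA and 0.94 ± 0.16 in parental RPF. GCN3, the alpha subunit of eIF2B, had a trans mRNA value of -0.50 ± 0.16.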
